A study of Rattus norvegicus with 6 samples.

Results

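Developmental homeobox and PAX genes encode transcription factors that are named for their DNA-binding domains, the homeodomain and the paired domain. They were followed here in rat liver tissue after embolization, the blocking of a tissue's feeding vessels with small particles. The members were the rows of the deposited gene table whose symbol belongs to the Hox, Pax, Dlx, Nkx, Lhx, Msx, Meox, Pitx, Irx, Meis or Pbx families, other than Pax5, or is Mkx, Six4, Six5 or a gene of the same family as these last, and that held at least 10 read counts summed over the 6 libraries. Of 32623 genes in the table, 99 rows carried such a symbol and 43 reached 10 counts. Another 24 held between 1 and 9 counts, and 32 had no count in any library. The members with the fewest counts were Hoxa4 and Irx2, with 10 each, and the row nearest below the minimum was Nkx6-3, with 9.

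The 6 libraries were made from polyadenylated RNA of Rattus norvegicus liver. The GZM group (3 libraries) was embolized with zinc sulfide (ZnS) microspheres and the GM group (3 libraries), the control, with blank microspheres, so both groups had been embolized. The series title names hepatocellular carcinoma, but the labels give the tissue only as liver, with no strain, age, time after embolization or tumour content. Whether the biosamples of a group came from different rats is not given, so the p-values measure the spread between these samples, which may be technical. Counts summed to between 13443115 and 16604067 per library. Of a list of 12 hepatocyte genes, 11 were matched, and together they took 7.48% to 8.22% of all counts in GZM libraries and 1.67% to 5.08% in GM libraries, where GM 3 held the highest share.

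Homeobox genes lay out the body in the embryo. Hox genes sit in clusters, numbered by position, and their order along the chromosome follows the body axis along which they act. Meis and Pbx proteins, which carry an enlarged homeodomain, bind DNA together with Hox proteins. The Dlx, Msx and Pax genes, and Six4 and its relatives, shape the head, limbs and muscles, and Nkx2-5 the heart. Most are little used in adult liver, where other homeobox genes (Hhex and Prox1 among them) serve hepatocyte identity.

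In the GZM libraries, Dlx1, Dlx2, Dlx4 and Dlx6 held few counts or none, while every GM library held at least 11 counts of each. Among the 30 members with enough counts for a test, 14 fell in GZM and 2 rose (edgeR, quasi-likelihood test, Benjamini-Hochberg adjusted p below 0.05). Over all 14298 tested genes, 44.0% were called, 21.7% as lower and 22.2% as higher in GZM; among the tested members the shares were 46.7% and 6.67%. The members' median log2 fold change was -0.90, against -0.09 for all tested genes. It was also -0.90 with the 1 tested member that had no GZM count set at a floor of 3 counts over the GZM group. These counts describe the members but do not weigh in favour of a fall. Of the 14 that fell, 12 passed the low-count filter through their GM libraries alone, and both that rose passed it through their GZM libraries alone, so the filter itself favoured members that differ in that direction. Groups did not overlap for 15 tested members lower in GZM and 3 higher, or 50% and 10% of those tested, against 29.7% and 28.4% of all tested genes (58.1% in either direction). Scaled by library totals alone, the median of all tested genes shifted to -0.92 and the split of calls to 1315 higher and 8513 lower, against 3181 and 3104 with TMM. On that scale 22 members were lower and 2 higher; Irx5, Pax8, Pbx2, Meis2 and Hoxb2 to Hoxb4 were among the added ones.

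**Figure D1:**
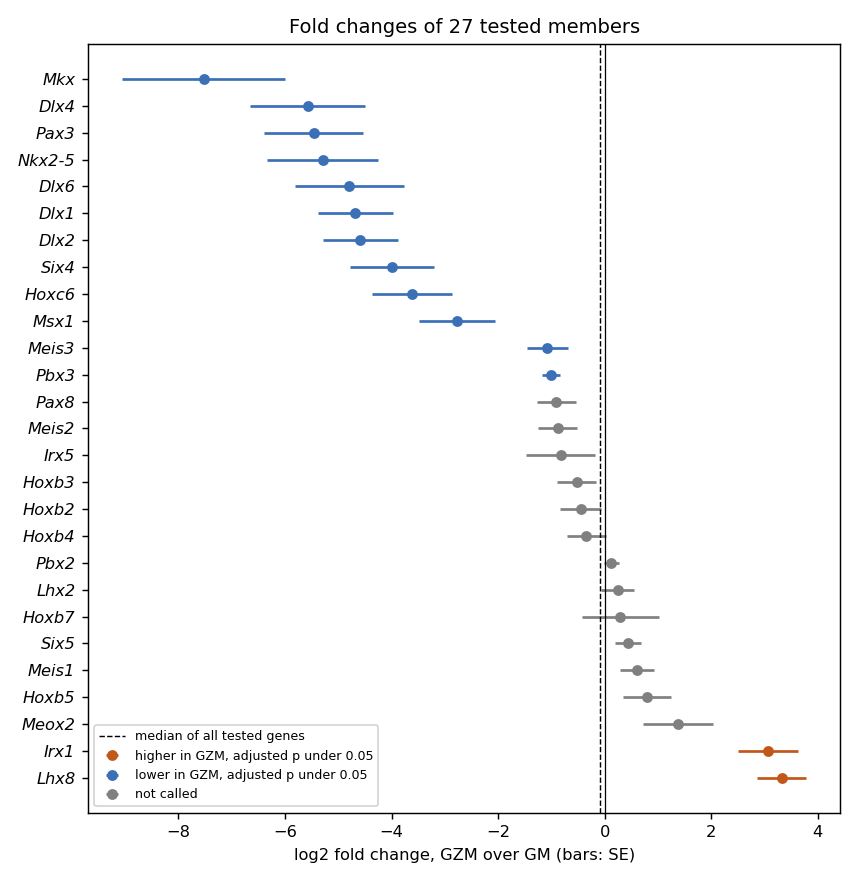
Log2 fold change, GZM over GM, of 27 tested members (horizontal axis; bars are standard errors), coloured by whether the gene passed at an adjusted p under 0.05. The 12 blue genes fell, the 2 orange ones (Irx1 and Lhx8) rose, and the dashed line marks the median of all tested genes, -0.09; the fitted value of Mkx, without GZM counts, is no bound.

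Start-site sequences are shown for members that fell (Dlx1, Msx1, Nkx2-5) and 1 that rose (Irx1), since these moved in opposite directions. RefSeq windows (build GRCr8) of 300 bases, 250 before and 50 after the gene's start, were found for 23 of the 43 members. Those not found include Dlx2, Dlx4, Dlx6, Hoxb2, Hoxb3, Hoxb4, Hoxb5, Hoxb6, Hoxb7, Hoxc10, Hoxc5, Hoxc6, Hoxc9, Irx5, Meis2, Meox1 and Pbx3. The capitals mark the GC box CCGCCC and the Meis core TGACAG, on either strand. Each sequence is written in the direction of its gene.
Dlx1, GRCr8 chr3:76763614-76763913, plus strand: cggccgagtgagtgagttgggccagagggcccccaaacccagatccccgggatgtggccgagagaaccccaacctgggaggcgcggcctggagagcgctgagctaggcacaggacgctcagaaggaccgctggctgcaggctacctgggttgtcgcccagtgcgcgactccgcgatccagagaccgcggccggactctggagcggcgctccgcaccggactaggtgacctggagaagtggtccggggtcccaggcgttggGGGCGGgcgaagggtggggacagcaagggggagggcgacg
Msx1, GRCr8 chr14:77185552-77185851, plus strand: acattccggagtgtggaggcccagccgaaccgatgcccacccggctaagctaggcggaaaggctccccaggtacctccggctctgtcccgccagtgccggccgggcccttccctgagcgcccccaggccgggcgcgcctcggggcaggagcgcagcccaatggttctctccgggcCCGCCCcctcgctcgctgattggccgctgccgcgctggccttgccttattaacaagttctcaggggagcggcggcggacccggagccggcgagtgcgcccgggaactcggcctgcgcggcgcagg
Nkx2-5, GRCr8 chr10:16848350-16848649, plus strand: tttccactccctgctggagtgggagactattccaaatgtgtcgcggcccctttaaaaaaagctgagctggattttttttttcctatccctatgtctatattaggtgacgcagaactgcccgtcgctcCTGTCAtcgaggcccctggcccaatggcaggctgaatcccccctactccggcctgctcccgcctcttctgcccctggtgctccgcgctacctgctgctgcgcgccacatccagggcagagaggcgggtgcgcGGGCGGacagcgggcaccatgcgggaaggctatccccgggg
Irx1, GRCr8 chr1:33122872-33123171, plus strand: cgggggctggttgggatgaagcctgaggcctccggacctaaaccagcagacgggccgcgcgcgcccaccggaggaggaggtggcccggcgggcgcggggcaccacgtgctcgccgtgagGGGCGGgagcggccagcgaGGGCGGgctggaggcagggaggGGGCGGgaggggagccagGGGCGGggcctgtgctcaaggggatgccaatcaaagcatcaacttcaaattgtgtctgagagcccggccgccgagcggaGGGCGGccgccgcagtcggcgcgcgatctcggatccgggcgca

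The 4 windows shown are all rich in G and C. They hold 27 CG dinucleotides in Dlx1, 34 in Msx1, 19 in Nkx2-5 and 35 in Irx1, and G and C make up 70.3%, 73.0%, 61.3% and 74.0% of their bases. Over the 23 matched members the median was 20 CG dinucleotides and 66.0% G and C, taking the higher value where a gene had several windows, against 7 and 51.7% over all 33469 windows. The GC box was present in 16 of 23 members and in 33.1% of all windows. The Meis core was present in 3 members (Hoxa2, Hoxa4 and Nkx2-5) and in 19.0% of all windows, the Hox and Pbx pair motif TGATTNAT in 1 member (Hoxa2) and 3.18%, and the TATA box TATAAA in 1 member (Meox2) and 14.2%. The homeodomain core TAATTA was in none of the 23 and in 5.36% of all windows. Both strands were searched, and no motif contains another. These are matches of letters in 1 window per start.

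Dlx genes pattern the forebrain and the facial skeleton. All 4 that had enough counts passed as lower, against 21.7% of all tested genes. These 4 passed the low-count filter through their GM libraries alone, so the tally is not read as a fall of the whole family. Dlx1 had 0.301, 0.283 and 0.628 CPM (read counts scaled to a common library size with TMM factors) in GZM 1, 2 and 3, against 7.23, 20.4 and 4.78 CPM in GM 1, 2 and 3. Its neighbour Dlx2, which lies end to end with Dlx1 on chromosome 3, had 0.100, 0.189 and 0.236 CPM in GZM libraries and 3.71, 7.70 and 1.95 CPM in GM libraries. For both genes every GZM library lay below every GM library, and GM 2 was the highest. The mean of Dlx1 was 0.404 ± 0.194 CPM across GZM libraries and 10.8 ± 8.39 CPM across GM libraries (SD, n = 3 per group), a log2 fold change of -4.68 ± 0.70 (SE, edgeR adjusted p = 0.00294). For Dlx2 the log2 fold change was -4.58 ± 0.70 (SE, edgeR adjusted p = 0.0031). Without GM 2 these became -3.82 for Dlx1 and -3.92 for Dlx2, and both still passed.

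Dlx4 and Dlx6 rested on a single GZM count each. Dlx4, on chromosome 10, had 0, 0 and 1 counts in GZM libraries and 37, 69 and 11 in GM libraries. Dlx6, on chromosome 4, had 0, 0 and 1 counts in GZM libraries and 13, 43 and 12 in GM libraries. Pooled over libraries, Dlx4 was 61.2-fold lower in GZM (95% counting interval 10.8 to 2438) and Dlx6 was 35.6-fold lower (6.17 to 1425). Such intervals cover counting error only. The fitted log2 fold changes were -5.57 for Dlx4 (edgeR adjusted p = 0.00599) and -4.80 for Dlx6 (edgeR adjusted p = 0.00833). Without GZM 3 neither had a GZM count, and the fitted log2 fold changes moved to -7.90 for Dlx4 and -7.13 for Dlx6. Leaving out the only GZM count can only widen the gap, so passing there is no check on the fall. Without GM 2 the fitted log2 fold change of Dlx6 was -4.04, against -4.80 with all libraries. Dlx4 fell below the low-count filter when GM 2 was left out, so it then had no test. The paired neighbour of Dlx6, Dlx5, was under the minimum with 1 count in GZM and 6 in GM, and Dlx3 had 0 and 1. An uncharacterised gene on the opposite strand overlaps Dlx6, with 2 counts in GZM and 20 in GM.

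Msx1, a repressor active in the limb bud and tooth germ, also fell. It had 0.401, 1.32 and 0.236 CPM in GZM 1, 2 and 3 and 3.66, 7.58 and 2.06 CPM in GM 1, 2 and 3. The groups did not overlap, and GZM 2 stood nearest to GM. The log2 fold change was -2.78 ± 0.72 (SE, edgeR adjusted p = 0.0166). It was -3.79 without GZM 2 (adjusted p = 0.0199) and -2.14 without GM 2 (adjusted p = 0.0454), and the call was lost without GZM 1 (adjusted p = 0.0525) or GZM 3 (adjusted p = 0.0565). Msx2 had no count, and Msx3 had 2, both in GM.

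**Figure D2:**
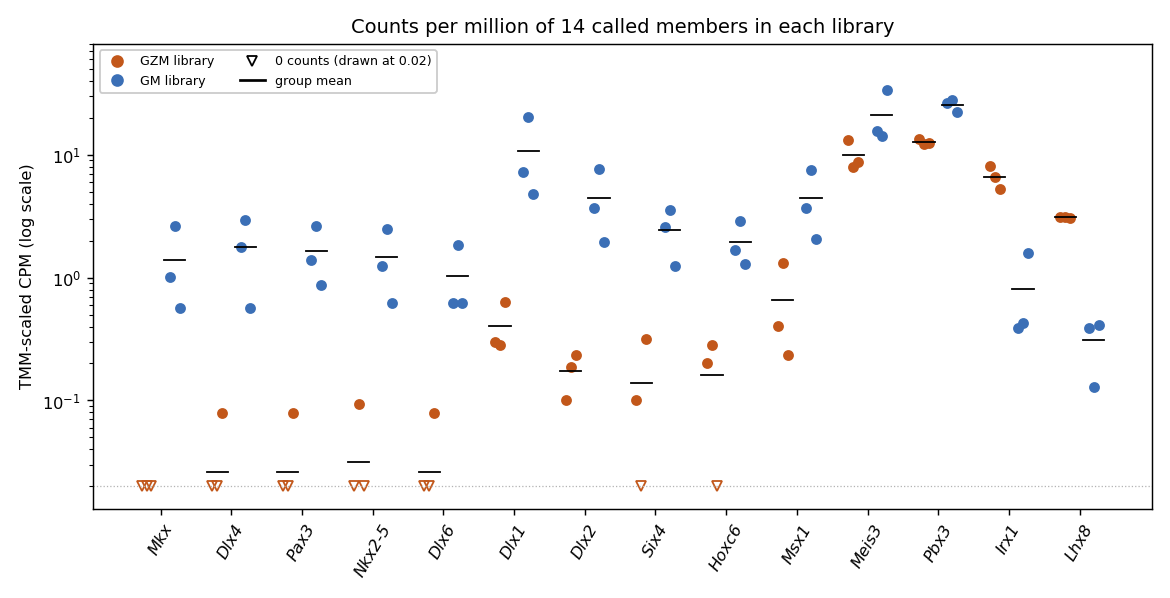
TMM-scaled CPM (log axis) of 14 members past an adjusted p of 0.05, with 1 point per library, GZM left of GM within each gene, and black lines at the group means; open triangles are libraries with 0 counts, drawn at 0.02. Mkx has no GZM count, and from Dlx4 to Dlx6 only 1 GZM library of each gene holds a count.

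Pax3 and Pax8 were the Pax genes with enough counts. Pax3, which specifies neural crest and muscle progenitors, had 0, 0 and 1 counts in GZM libraries and 29, 62 and 17 in GM libraries. Every GM library lay above every GZM library. Pooled, it was 56.5-fold lower in GZM (95% counting interval 9.93 to 2252). The fitted log2 fold change was -5.46 (edgeR adjusted p = 0.00396). Leaving out GZM 3, which held the only GZM count, moved it to -7.80, so passing there is no check on the fall. Pax8, a regulator of thyroid and kidney development, had 1.504, 2.07 and 1.10 CPM in GZM libraries and 3.52, 2.26 and 2.98 CPM in GM libraries. Its groups did not overlap, but it did not pass (log2 fold change -0.91 ± 0.37 SE, edgeR adjusted p = 0.0794). Pax1, Pax2 and Pax7 had no count in any library, and Pax4, Pax6 and Pax9 had 2, 5 and 7 counts in all.

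Six4, which acts in muscle formation together with Eya coactivators, fell. It had 1, 0 and 4 counts in GZM libraries and 54, 83 and 24 in GM libraries. Every GZM library lay below every GM library. The log2 fold change of Six4 was -3.99 ± 0.78 (SE, edgeR adjusted p = 0.00618), and -5.45 without GZM 3. Six5, which is expressed in many adult tissues, did not pass. It had 10.9, 10.1 and 7.22 CPM in GZM libraries and 7.47, 6.13 and 7.30 CPM in GM libraries, which overlap (log2 fold change 0.43 ± 0.25 SE, edgeR adjusted p = 0.188; -0.41 with library totals).

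Nkx2-5, an early regulator of the heart, had 0, 1 and 0 counts in GZM libraries and 26, 59 and 12 in GM libraries. Pooled, it was 50.7-fold lower in GZM (95% counting interval 8.89 to 2025). The edgeR test of its fitted fold change gave an adjusted p of 0.00627. It still passed without GM 2, where its fitted log2 fold change was -4.61, against -5.29 with all libraries. Leaving out GZM 2, which held the only GZM count, widened the gap (-7.67), so passing there is no check on the fall. It was the only one of 14 Nkx rows to reach 10 counts. Mkx, a relative of the Iroquois genes that acts in tendon, had no count in any GZM library and 21, 62 and 11 counts in GM libraries. Set against a floor of 3 counts over the GZM group, Mkx was 16.4-fold lower in GZM. The lower end of its 95% counting interval was 13.1-fold. The edgeR test, which used the fitted fold change and not this floor, gave an adjusted p of 0.0115. Mkx had no test without GM 2, where it fell below the low-count filter.

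Summed by cluster, Hox genes split, although Hoxb6 alone leaned to GM as the Hoxc genes did. Hoxb genes were present in both groups, whereas counts of Hoxc genes lay almost wholly in GM. The 10 Hoxb rows together held 11.4, 8.11 and 6.20 CPM in GZM 1, 2 and 3 and 13.02, 9.62 and 10.3 CPM in GM 1, 2 and 3. The 9 Hoxc rows held 2, 4 and 3 counts in GZM libraries and 72, 133 and 38 in GM libraries, or 0.201, 0.377 and 0.236 CPM against 3.47, 5.66 and 1.95 CPM. The Hoxb sums overlap between groups and the Hoxc sums do not. The difference between the clusters was not tested.

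Among Hoxc genes, which act along the trunk and limbs, Hoxc6 was the 1 with enough counts for the test. It had 2, 3 and 0 counts in GZM libraries and 35, 68 and 25 in GM libraries, and it fell (log2 fold change -3.62 ± 0.75 SE, edgeR adjusted p = 0.00744; -4.33 without GZM 2 and -2.97 without GZM 3). Hoxc4, Hoxc5 and Hoxc10 had no GZM count. In GM 1, 2 and 3 Hoxc4 had 9, 18 and 5 counts, Hoxc5 13, 8 and 1, and Hoxc10 4, 26 and 6. Set against the floor of 3 counts over the GZM group, they were 5.58-fold, 3.84-fold and 6.28-fold lower in GZM. The lower ends of their 95% counting intervals were 4.28-fold, 2.87-fold and 4.85-fold. Hoxc4 and Hoxc10 were called lower when the low-count filter was relaxed to 10 summed counts. Hoxc9 was mixed, with 0, 1 and 3 counts in GZM libraries and 4, 12 and 1 in GM libraries.

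Of the 5 Hoxb genes tested, which include Hoxb4, a regulator of blood progenitors, none passed. Hoxb3 had 3.81, 2.55 and 2.12 CPM in GZM libraries and 5.50, 3.02 and 3.65 CPM in GM libraries (log2 fold change -0.53 ± 0.37 SE, edgeR adjusted p = 0.274). Hoxb4 had 3.51, 1.89 and 1.81 CPM in GZM libraries and 3.47, 2.47 and 3.19 CPM in GM libraries (log2 fold change -0.35 ± 0.37 SE, edgeR adjusted p = 0.466). The groups overlap in both genes. Hoxb2 (-0.45), Hoxb5 (0.79; -0.042 with library totals) and Hoxb7 (0.29; -0.52 with library totals) did not pass either, with adjusted p from 0.187 to 0.762 in edgeR, and at an unadjusted p under 0.05 no Hoxb gene passed. With library totals as the scale, Hoxb2, Hoxb3 and Hoxb4 were called lower; DESeq2 called none of the 5. Hoxb6, with 7, 0 and 1 counts in GZM libraries and 17, 32 and 9 in GM libraries, was not tested.

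The numbers from 2 to 7 held nearly all Hoxb counts. Hoxb1, Hoxb9 and Hoxb13 had none, and Hoxb8 had 3 counts in GZM and 5 in GM. In the Hoxa cluster only Hoxa2 (4 counts in GZM, 13 in GM) and Hoxa4 (4 and 6) reached the minimum. In the Hoxd cluster only Hoxd8 did, with 0, 0 and 1 counts in GZM libraries and 4, 7 and 2 in GM libraries. Pooled, Hoxd8 was 6.8002-fold lower in GZM (95% counting interval 1.02 to 289).

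**Figure D3:**
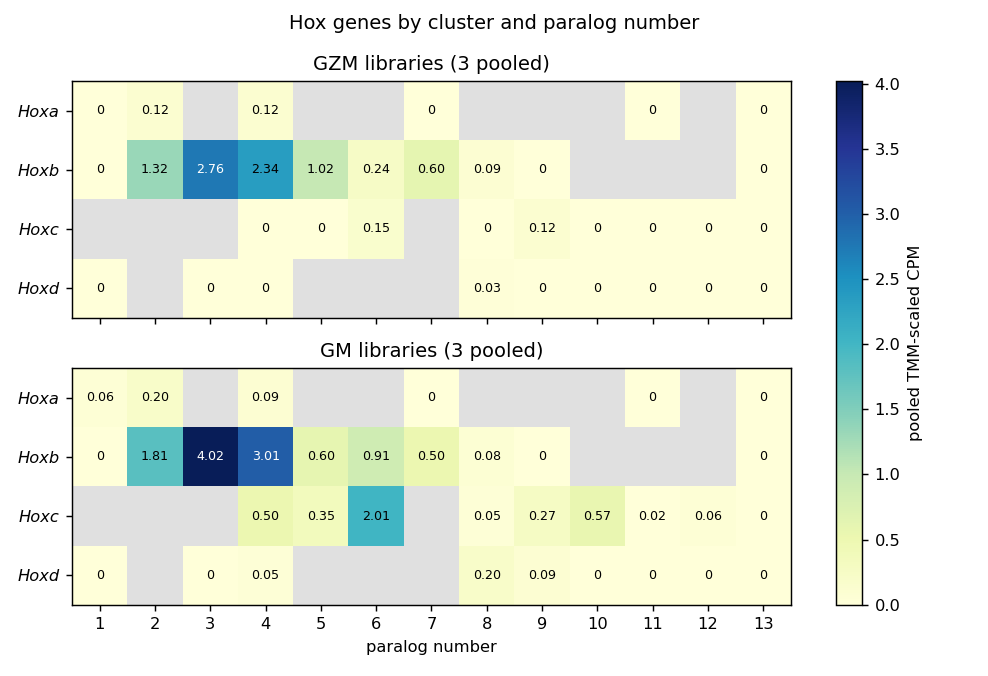
Pooled TMM-scaled CPM of Hox genes by cluster (rows) and paralog number (columns) in the 3 GZM libraries (upper grid) and the 3 GM libraries (lower grid); grey cells are not analysed here. Hoxb2 to Hoxb5 hold signal in both grids, and Hoxc6 stands at 0.15 CPM in GZM and 2.01 CPM in GM.

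Meis and Pbx genes, whose proteins pair with Hox proteins on DNA, were among the most abundant members in both groups, other than Pbx4. Per exon length, Pbx2 was highest, at 19.9 ± 2.03 TMM-scaled FPKM across GZM libraries and 18.3 ± 1.03 FPKM across GM libraries (SD, n = 3 per group). In GM, Meis3 (10.7 ± 5.48 FPKM) and Pbx3 (9.11 ± 1.05 FPKM) came next, within each other's spread. In GZM the next in order were Meis3 (5.09 ± 1.48 FPKM), Meis1 (4.56 ± 0.989 FPKM), Pbx3 (4.53 ± 0.256 FPKM) and Six5 (4.35 ± 0.898 FPKM), also within each other's spread.

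Among the Meis and Pbx genes tested, 2 fell and none rose. Pbx3 had 13.5, 12.2 and 12.5 CPM in GZM libraries and 26.6, 27.9 and 22.3 CPM in GM libraries. Each group was narrow and the groups were far apart (log2 fold change -1.01 ± 0.17 SE, edgeR adjusted p = 0.00405). Mapkap1, which overlaps Pbx3 on the other strand, had 1516 counts in GZM and 1952 in GM, and whether counting used the strand is not given. Meis3 had 13.3, 7.92 and 8.79 CPM in GZM libraries and 15.6, 14.2 and 33.5 CPM in GM libraries. GM 3 held the most, and unlike the other 13 members that fell, Meis3 was lowest in GM 2 among the GM libraries. Its fall (log2 fold change -1.08 ± 0.38 SE, edgeR adjusted p = 0.0497) stood at the threshold. The call was lost without any 1 of GM 1 (adjusted p = 0.0579), GM 3 (-0.54, adjusted p = 0.136), GZM 2 (adjusted p = 0.161) or GZM 3 (adjusted p = 0.142), and with median-of-ratios factors (adjusted p = 0.0542).

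Pbx2, Meis1 and Meis2 did not pass. Pbx2 had 52.0, 63.3 and 61.4 CPM in GZM libraries and 52.2, 57.5 and 52.3 CPM in GM libraries (log2 fold change 0.12 ± 0.14 SE, edgeR adjusted p = 0.501). With library totals its direction turned, and it passed as lower (-0.71, adjusted p = 0.00886). A gene on the opposite strand that overlaps Pbx2 had 25672 counts in GZM and 10903 in GM. Meis2 had 7.82, 6.98 and 10.9 CPM in GZM libraries and 14.03, 24.1 and 9.41 CPM in GM libraries (log2 fold change -0.88 ± 0.36 SE, edgeR adjusted p = 0.083). It passed as lower without GM 3 (-1.11, adjusted p = 0.0191). Meis1 (log2 fold change 0.60 ± 0.32 SE, edgeR adjusted p = 0.154; -0.23 with library totals) had overlapping groups.

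The 2 members that rose were Irx1 and Lhx8. Irx1, an Iroquois gene of lung, heart and limb patterning, had 8.12, 6.599 and 5.26 CPM in GZM libraries and 0.386, 0.426 and 1.59 CPM in GM libraries. GM 3 was the GM library nearest to GZM. The log2 fold change was 3.06 ± 0.56 (SE, edgeR adjusted p = 0.00514), or 8.33-fold, and 4.04 without GM 3. Its neighbour Irx2 on chromosome 1 pointed the same way at very low counts. Irx2 had 2, 4 and 4 counts in GZM libraries and none in GM libraries. Set against the floor of 3 counts over the GM group, Irx2 was 6.37-fold higher in GZM. The lower end of its 95% counting interval was 4.29-fold. Irx2 was not tested, and was called higher when the low-count filter was relaxed. Irx5, of the other Iroquois cluster, had 0.602, 2.73 and 2.12 CPM in GZM libraries and 2.17, 5.92 and 1.65 CPM in GM libraries and did not pass (log2 fold change -0.83 ± 0.64 SE, edgeR adjusted p = 0.325; -0.055 without GM 2).

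Lhx8, a LIM-homeobox gene of cholinergic forebrain neurons and, in mouse, of oocytes, had 3.11, 3.11 and 3.06 CPM in GZM libraries and 0.386, 0.128 and 0.411 CPM in GM libraries. The GZM libraries were nearly equal and all above the GM libraries (log2 fold change 3.32 ± 0.46 SE, 9.97-fold, edgeR adjusted p = 0.00253). Lhx2, which in mouse keeps hepatic stellate cells quiescent, was unlike Lhx8, with 5.21, 3.77 and 3.22 CPM in GZM libraries and 4.00, 3.36 and 2.93 CPM in GM libraries (log2 fold change 0.24 ± 0.31 SE, edgeR adjusted p = 0.546; -0.61 with library totals). Lhx6 had 12 counts in GZM and 18 in GM and was not tested. Both calls of a rise held in every alternative run, library totals among them.

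With all 6 libraries and no replicate block, the mesoderm genes Meox1 and Meox2 gave no call. Meox2 had 5.72, 2.07 and 2.20 CPM in GZM libraries and 2.07, 0.383 and 1.39 CPM in GM libraries. Its groups were apart only by the margin between GZM 2 and GM 1, and it did not pass (log2 fold change 1.37 ± 0.65 SE, edgeR adjusted p = 0.122; 0.75 without GZM 1). Meox1, with 3, 3 and 4 counts in GZM libraries and 28, 8 and 25 in GM libraries, was not tested with all 6 libraries and was called lower without GM 2. The remaining members that were not tested, Irx3 and Pbx4, had 7 and 5 counts in GZM and 12 and 14 in GM.

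Across the GM libraries the members that fell shared an order. In 13 of 14, GM 2 was the highest, GM 1 in the middle and GM 3 the lowest, with Meis3 as the exception; the same order held in 53.2% of all tested genes called lower. The 12 that fell outside the Meis and Pbx families summed to 2.51, 2.92 and 2.67 CPM in GZM 1, 2 and 3 and to 28.9, 60.9 and 17.9 CPM in GM 1, 2 and 3. These 12 were chosen by their calls and passed the low-count filter through GM alone. The gap between the groups in their sum therefore follows from the choice. Summed levels of 12 cell division genes, all of which fell, were 239.6, 267.0 and 264.2 CPM in GZM libraries and 1135, 1493 and 599.1 CPM in GM libraries, in the same order within GM. The 11 hepatocyte genes ran the other way, at 110844, 114160 and 94373 CPM in GZM libraries and 16327, 11761 and 43384 CPM in GM libraries, and 10 of them rose. Over all tested genes 21.7% were called lower and 22.2% higher. In bulk tissue, fewer cells of a type and less RNA per cell cannot be told apart. The part of either marker group in the members' changes was not tested.

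**Figure D4:**
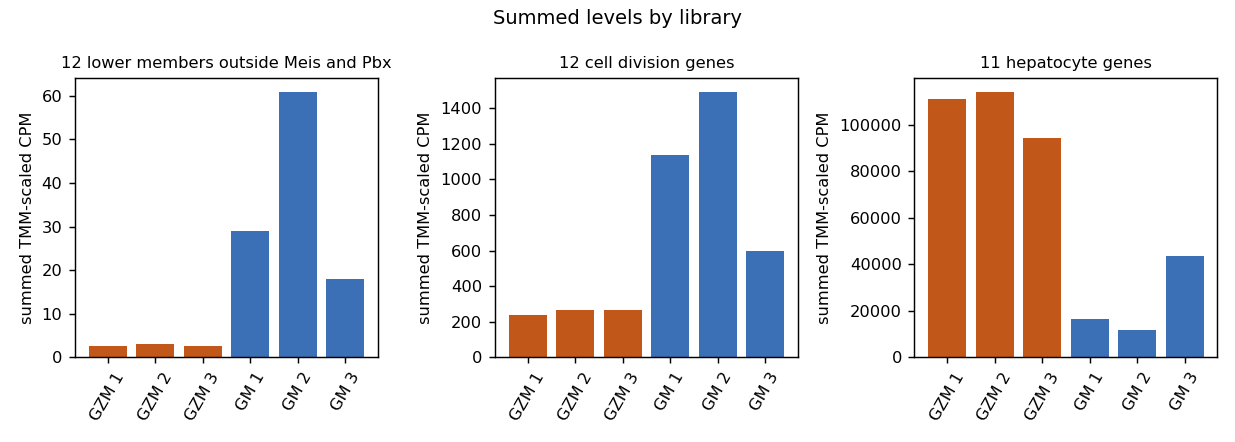
Summed TMM-scaled CPM by library of the 12 members that fell outside the Meis and Pbx families (left), of 12 cell division genes (middle) and of 11 hepatocyte genes (right), with GZM libraries in orange and GM libraries in blue. GM 2 is the highest library in the left and middle panels and the lowest in the right one. The genes of the left panel were chosen by their fall, so its gap between groups follows from the choice.

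Markers of other cell types that use these genes in development moved unevenly. The background for each count is 21.7% of all tested genes lower and 22.2% higher. Of 8 neural and neuroendocrine markers, 3 were tested and 2 fell (Tubb3, a neuronal tubulin, and Elavl4, a neuronal RNA-binding protein). The sum of all 8 ran from 5.65 to 7.54 CPM in GZM and from 19.9 to 59.3 CPM in GM, with Chga at 0 counts in GZM and at 1 in GM. Most of this sum was Tubb3 (5.21 CPM in GZM 1 and 30.3 CPM in GM 1). Syp, the other marker tested, did not pass (log2 fold change -0.055, edgeR adjusted p = 0.928). Of 6 skeletal muscle markers 1, Des, was tested and did not pass, with sums of 27.9 to 45.8 CPM in GZM and 39.0 to 67.0 CPM in GM. Nearly all of these sums was Des (45.4 CPM in GZM 1 and 66.4 CPM in GM 1), which is also a marker of the stellate cell list. Myod1 was at 0 in both groups, and Myog and Ckm were at 0 in GZM. Of 11 stellate cell and fibroblast markers tested, 3 fell and 2 rose, with overlapping sums (1953 to 4579 CPM in GZM, 3907 to 10499 CPM in GM). Of 5 smooth muscle markers tested 1 fell (119.3 to 202.5 CPM in GZM, 239.4 to 502.0 CPM in GM). Of 11 haematopoietic markers tested 5 fell (911.0 to 1407 CPM in GZM, 2988 to 4447 CPM in GM), with Gata1 at 0 in both groups. Of 7 endothelial markers tested 4 rose and 1 fell (324.2 to 391.1 CPM in GZM, 195.5 to 290.1 CPM in GM).

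Markers of the remaining types also moved unevenly, against the same background of 21.7% lower and 22.2% higher. Of 6 bile duct markers 1 rose (124.0 to 205.9 CPM in GZM, 126.5 to 284.3 CPM in GM). Of 8 kidney tubule markers 2 were tested and 1, Lrp2, rose (23.0 to 36.0 CPM in GZM, 6.77 to 13.01 CPM in GM), with Umod and Aqp2 at 0 in both groups. Of 7 pancreas and gut markers matched, 3 were tested, 1 rose and 1, Cdx2, fell (8.72 to 12.3 CPM in GZM, 10.3 to 21.8 CPM in GM), with Gcg and Prss1 at 0 in both groups. Of 8 germline markers 1 was tested and did not pass (2.73 to 6.72 CPM in GZM, 0.979 to 2.93 CPM in GM), with Dazl at 0 in both groups. The part of these cell types in the members' changes was not tested.

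Homeobox genes outside the member families moved in both directions. Of 30 tested in a list of 78, 13 fell and 7 rose, with a median log2 fold change of -0.44. Over all tested genes 21.7% fell and 22.2% rose. Prox1 and Hhex, which serve hepatocyte identity, rose: Prox1 had 107.3, 143.8 and 132.0 CPM in GZM libraries and 27.6, 15.1 and 37.2 CPM in GM libraries (log2 fold change 2.26, edgeR adjusted p = 0.00257), and Hhex rose by 1.81 on the log2 scale. Several embryonic ones were among the 13 that fell, and those named next were taken from these falls only. The gut regulator Cdx2 had 0.301, 0.471 and 0.236 CPM in GZM libraries and 6.85, 13.8 and 2.88 CPM in GM libraries (log2 fold change -4.53, edgeR adjusted p = 0.00315). Isl1, of motor neurons and heart, had 3 counts in GZM and 168 in GM (edgeR adjusted p = 0.00733). Shox2, of limb and heart pacemaker, had 4 counts in GZM and 136 in GM (log2 fold change -4.03, edgeR adjusted p = 0.00851). Zeb2, a homeodomain repressor of epithelial genes, fell by 1.89 on the log2 scale.

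Retinoic acid is the vitamin A derivative that switches on Hox genes in the embryo. Among its genes and the Hox cofactors, 8 of 18 tested rose and 3 fell, with a median log2 fold change of 0.65. Over all tested genes 22.2% rose and 21.7% fell. The synthesis enzymes Aldh1a1 (by 2.25) and Rdh10 (by 1.60), the receptors Rarb (by 1.93) and Rxrg (by 2.82) and the degrading enzyme Cyp26a1 (by 3.14) rose on the log2 scale. The receptor Rarg (-1.16), the carrier Crabp2 (-3.03) and the degrading enzyme Cyp26b1 (-2.48) fell. Crabp2 had 0.903, 0.754 and 1.33 CPM in GZM libraries and 6.27, 15.7 and 2.83 CPM in GM libraries, the GM order of the Dlx genes. A second row with the symbol Crabp2 held 1 count. The cofactors Pknox1 (-0.04), Pknox2 (-0.84) and Pbxip1 (0.30) did not pass.

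Of 22 chromatin regulators that keep Hox genes silent or active, 5 fell and 1 rose, with a median of -0.21; over all tested genes 21.7% fell and 22.2% rose, so the count of falls is near the background. Ezh2, the Polycomb enzyme that silences Hox genes, had 24.4, 23.7 and 23.6 CPM in GZM libraries and 76.7, 101.9 and 50.7 CPM in GM libraries (log2 fold change -1.68, edgeR adjusted p = 0.00287). Its partner Suz12 fell by 1.33, and Kmt2a, which maintains Hox expression, fell by 1.32. Among 14 tested partners of PAX proteins, LIM proteins and the Six4 family 4 fell and 3 rose, with a median of -0.13. The LIM-only gene Lmo1 (-3.73) and the corepressor gene Tle3 (-0.996) fell, and Tle2 (1.28) rose. Of the Eya coactivators, which bind Six4 and its relatives, Eya3 fell (-0.55), Eya2 did not pass (0.14), Eya1 had no count and Eya4 had 1.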

How the data were processed

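Messenger RNA was measured in 6 rat liver libraries, 3 GZM and 3 GM, grouped and numbered by their titles; the columns of the GZM libraries carry the letters ZGM and were matched by letters and number. Per the labels' protocols, polyadenylated RNA was used and the second cDNA strand was marked with dUTP, which keeps strand. The deposited counts are whole numbers per gene, not normalized. The deposited FPKM values are these counts per exon length and per total counts, and all recomputed within 0.01. Exon length is given in bases per the file headers. No aligner, counter or strand setting is given in the sources used here. Per the submitters' processing notes the build is mRatBN 7.2, but positions reach 282724300 on chromosome 1, so the build of the deposited positions is unsure and they were used only for neighbours and overlaps.

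Counts were tested with edgeR 4.0.16 (R 4.3.3) as GZM against GM, with the quasi-likelihood test, TMM factors, the default low-count filter (14298 genes) and Benjamini-Hochberg adjustment over all of them. Standard errors are those implied by the quasi-F value. CPM and TMM-scaled FPKM use effective library sizes, where 1 count is 0.0426 to 0.100 CPM. The fit was tested on simulated data. Groups with 0 counts were set at 3 counts over their pooled library size. Members, lists and tests were chosen with earlier results of these data known. Every member may be named, and from each list mainly the genes of smallest p; others of a list are named for their role. Between replicates, chi-square over its degrees of freedom was 11.2 to 208.9, so each library counts as 1 sample. Alternatives were other low-count filters, library totals, median-of-ratios (RLE) factors, DESeq2 1.42.0, a replicate block, and leaving out libraries. Some members and list genes are not reported here by name and are left out of the plots, but counts and sums include them. Promoter windows come from RefSeq (GRCr8). Figures were drawn with matplotlib 3.10.9.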

Additional observations from a re-analysis of the deposited data

How the results depend on the processing

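When libraries were scaled by their totals only, the median log2 fold change of all tested genes was -0.92, against -0.09 with TMM, 9828 genes were called (1315 higher and 8513 lower, against 3181 and 3104), 22 members fell in place of 14, and the members' median was -1.75. On that scale the sign turned for Hoxb7 (-0.52), Hoxb5 (-0.042), Lhx2 (-0.61), Meis1 (-0.23), Pbx2 (-0.71) and Six5 (-0.41), none of them called on the TMM scale. Hoxb7 also turned without GZM 2 (-0.12) and without GM 1 (-0.093) and ranged from -0.12 to 0.79 without GZM 1, GZM 2, GZM 3 or GM 1; without GM 2 or GM 3 it gave no value. All 14 falls and both rises kept their calls with library totals, without the low-count filter, with a filter of 10 summed counts and with DESeq2; these last 3 added Hoxc4 and Hoxc10 as lower and Irx2 as higher. Leaving out each library gave 3777 to 7024 genes called (3777 without GZM 2, 6285 with all 6), 11 to 14 members lower, 2 higher and a members' median of -1.06 to -0.70. Without both GM 3 and GZM 1, 16 members fell and 2 rose. Same-numbered libraries did not deviate together (correlations of -0.14, 0.16 and -0.27), so the numbers do not pair them; with a replicate block 12 members fell and 3 rose (Meis3 among those lost, Meox2 gained), and 5166 genes were called. Depth limits the 13 members that did not pass the low-count filter and so were not tested.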
